A study of Rattus norvegicus with 80 samples.

Results

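Mammary epithelial cells (MECs) and fibroblasts from wildtype rats were compared as the normal expression programs of these cultured mammary cell types. The comparison was chosen by label: 3 libraries described as wildtype MECs and 3 described as wildtype fibroblasts, 6 of the 80 RNA sequencing libraries of the series. The series profiles Nf1-mutated rat lines and wildtype rats. Its tumors come from the lines named IF, PS and IFPS, and its normal samples (whole mammary pads, adipocytes, fibroblasts and MECs) come from the lines and from wildtype rats. The labels do not spell out the line names. In addition to the wildtype libraries, 3 MEC and 3 fibroblast libraries of each of the 3 lines were used as a second set in which to measure the same difference, giving 24 cultured-cell libraries in all.

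Both groups are labelled wildtype, against the Nf1-mutated lines, and the labels name no treatment. Both were grown in culture, and RNA was taken with the same column kit at 90 to 100% confluency, so the measurements describe cells in culture and not cells lysed directly from the gland. The series text calls its normal cell types flow sorted. The gate, the culture medium, the passage number, the sex and the age of the rats are not given in the sources used here. The labels also do not say whether replicates came from separate animals, so p-values measure the spread between these libraries, which may be technical.

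Mammary epithelial cells line the ducts and alveoli of the gland in an inner luminal and an outer basal or myoepithelial layer. They are joined by E-cadherin junctions, carry keratin filaments and rest on a basement membrane. Fibroblasts lie in the stroma between the ducts and the fat, use vimentin filaments and secrete fibrillar collagens and other matrix proteins. Nf1 encodes neurofibromin, a GTPase-activating protein that turns off Ras. The deposited table names genes by Ensembl rat identifiers without symbols, and none of its 32883 identifiers could be matched to a symbol in the gene table used here, whose 47357 entries carry no Ensembl identifiers. The markers just named were therefore not analysed here, and neither the identity of the cultures nor their purity was checked against markers. The results below describe classes of genes and 4 individual identifiers.

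The wildtype MEC libraries held 29673772 to 31632249 counts and the wildtype fibroblast libraries 24359974 to 27373203. Replicates of one cell type were close to each other, with Spearman correlations over genes of 0.987 to 0.994, against 0.866 to 0.899 for the 9 pairs of a MEC with a fibroblast library. No replicate pair agreed within sampling noise (chi-square per degree of freedom from 31.8 to 76.5), so every library counted as 1 sample. Over 9496 genes the median SD of the log2 level between replicates was 0.0967 in MECs and 0.122 in fibroblasts.

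MEC libraries spread their RNA over more genes than fibroblast libraries did. At least 1 count was found for 18452 to 18583 genes in MECs and for 17310 to 17344 in fibroblasts. With every library thinned to the depth of the shallowest one the ranges were 18135 to 18228 genes against 17139 to 17317. The 10 most abundant genes of each library held 8.21% ± 0.391 (SD, n = 3) of counts in MECs and 15.8% ± 0.914 (SD, n = 3) in fibroblasts. To reach 50% of all counts, MEC libraries needed 764, 833 and 801 genes, whereas fibroblast libraries needed 403, 400 and 455. The groups did not overlap in any of these measures, and the exact two-sided permutation test gave p = 0.1 for each, the smallest value that 3 against 3 libraries allow. The most abundant genes were largely common to both cell types: 7 of the top 10 by group mean and 65 of the top 100 were shared. The top 100 genes of fibroblasts held 33.7% of counts there and 20% in MECs.

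Most measured genes differed between wildtype MECs and fibroblasts. Of 14244 genes tested, 8501 (59.7%) passed an adjusted p under 0.05 in the quasi-likelihood test of edgeR, adjusted by Benjamini-Hochberg over all of them. Of these, 4336 (30.4% of those tested) were higher in MECs and 4165 (29.2%) higher in fibroblasts. The 6 libraries showed no overlap between cell types for 9703 genes (68.1%), of which 8433 were also called. Many differences were small: the median absolute log2 difference over all tested genes was 0.48. For 3771 genes (26.5%) the 95% interval of the difference lay within ±0.5 on the log2 scale, that is within 1.41-fold, and 757 of those genes were nevertheless called. A further 2729 genes (19.2%) were neither called nor bounded within that interval.

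Larger differences were more often toward MECs. A test against a 2-fold change (edgeR's glmTreat, adjusted p under 0.05) called 2535 genes (17.8%), of which 1585 (11.1%) were higher in MECs and 950 (6.67%) higher in fibroblasts. These sets are called MEC-higher and fibroblast-higher genes from here on. Among called genes, 1374 were at least 4-fold higher in MECs against 593 in fibroblasts. At a fitted difference of at least 16-fold there were 640 against 157 genes and at 64-fold 236 against 37. The share toward MECs was 51% over all calls, 80.3% at 16-fold and 86.4% at 64-fold. Over the 13 alternatives run, 77.1 to 85.8% of the 16-fold calls were toward MECs.

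**Figure D1:**
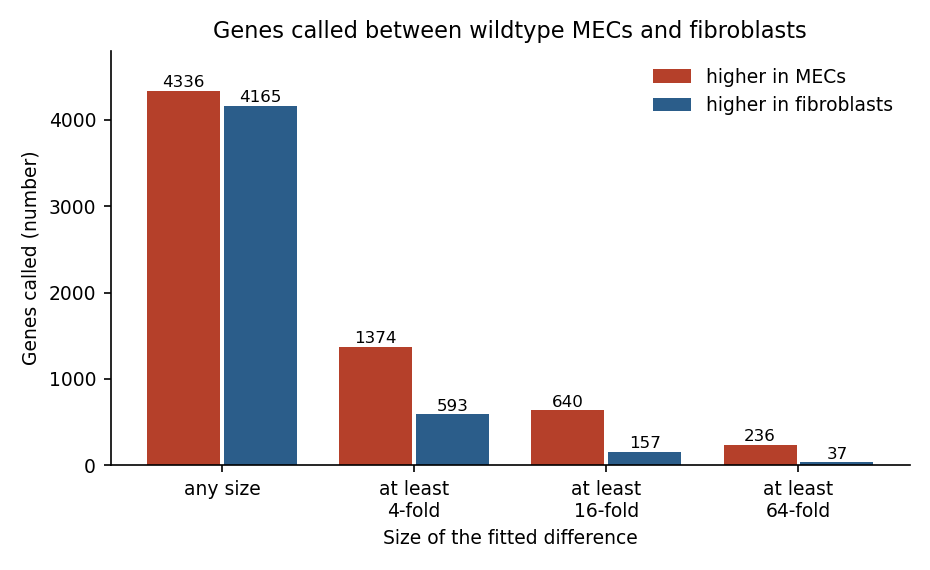
Number of genes called between wildtype MECs and fibroblasts (adjusted p under 0.05, 3 libraries each), by the least size of the fitted fold difference and by direction. The bars are of similar height over all calls (4336 and 4165) and part as the size grows, to 640 against 157 at 16-fold and 236 against 37 at 64-fold.

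The even split over all calls rests on the scaling. TMM factors, which set the bulk of genes to equal levels, differed by 0.35 on the log2 scale between the cell types. With library totals alone the median difference of all genes moved from 0.01 to 0.36 and 75.8% of 9581 calls were higher in MECs. Of the 2696 genes then called over 2-fold, 75.3% were higher in MECs against 62.5% with TMM, and 9 genes were called in opposite directions under these scalings.

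The classes also differed in abundance. MEC-higher genes had a median level of 9.47 CPM (counts scaled to library size) in MECs and 0.660 CPM in fibroblasts, and a median log2 difference of 3.48. Fibroblast-higher genes had a median of 32.2 CPM in fibroblasts and 5.70 CPM in MECs, and a median log2 difference of -2.23. When the tested genes were divided into 3 equal sets by mean abundance, the least abundant 4748 held 968 MEC-higher and 360 fibroblast-higher genes. The middle set held 396 and 245. In the most abundant set, from 45.4 CPM upward, the order turned, with 221 MEC-higher and 345 fibroblast-higher genes.

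**Figure D2:**
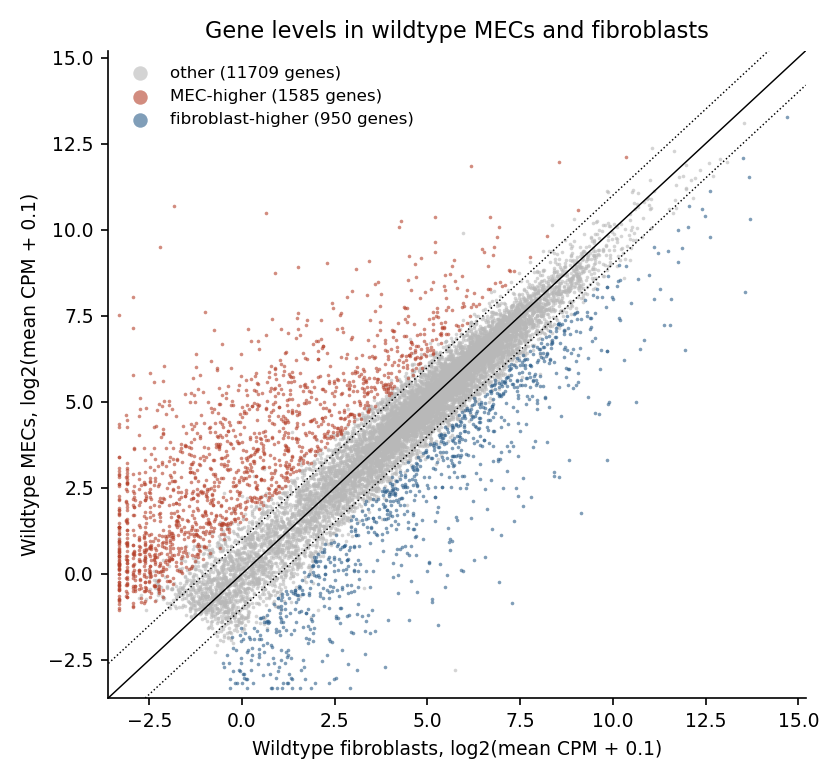
Mean level of each tested gene in wildtype fibroblasts (x axis) and wildtype MECs (y axis), both as log2(CPM + 0.1), each the mean of 3 libraries, with the solid line at equal levels and dotted lines at a 2-fold difference. Genes of the MEC-higher class (1585) reach down to the lower limit of the fibroblast axis, whereas most of the fibroblast-higher class (950) keep a measurable level in MECs.

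Summed over genes, the fibroblast-higher class took the larger share of RNA. MEC-higher genes held 8.29, 9.99 and 8.51% of counts in the MEC libraries and 0.952, 0.998 and 1.03% in the fibroblast libraries. Fibroblast-higher genes held 6.97, 6.66 and 7.56% of counts in MECs and 25.5, 25.4 and 23.6% in fibroblasts. These shares follow from the way the classes were chosen and are given as a description, with no test. The group means were 24.8% ± 1.08 (SD, n = 3) for the 950 fibroblast-higher genes in fibroblasts and 8.93% ± 0.925 (SD, n = 3) for the 1585 MEC-higher genes in MECs.

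Few genes of one cell type were below 1 CPM in the other, and fewer in MECs than in fibroblasts. Of 10352 genes at 5 CPM or more in every MEC library, 210 (2.03%) were below 1 CPM in every fibroblast library. Of 9933 genes at 5 CPM or more in every fibroblast library, 26 (0.262%) were below 1 CPM in every MEC library. With the other type held to at most 3 counts in each library, 33 genes were restricted to MECs and 1 gene to fibroblasts. These 3 counts stand for at most 0.156 CPM in a fibroblast library and 0.0982 CPM in a MEC library. The median mean level of the 33 genes in MECs was 19 CPM, and 5 of them had no count in any fibroblast library. The single fibroblast-restricted gene averaged 14.4 CPM in fibroblasts. These counts moved with the limits, and without the second wildtype fibroblast library 52 genes were restricted to MECs. Without the first or the third fibroblast library 2 and 6 genes were restricted to fibroblasts. More were restricted to MECs than to fibroblasts under each of the limits tried.

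The level each class kept in the other cell type is given as a description, since the classes were chosen by this same difference and it restates their fold sizes. For 646 fibroblast-higher genes at 10 CPM or more in fibroblasts, the median level in a MEC library was 25.4, 24 and 25.3% of the mean fibroblast level. For 774 MEC-higher genes at 10 CPM or more in MECs, the median level in a fibroblast library was 10.1, 11.2 and 10.4% of the mean MEC level. In MEC libraries 7 to 11 of the 646 genes were under 1% of the fibroblast level, whereas in fibroblast libraries 62 to 82 of the 774 were under 1% of the MEC level. In RNA from whole cultures, fewer cells of a type and less RNA per cell cannot be told apart.

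The 4 identifiers below, 2 in each direction, had the largest differences among called genes with no overlap between groups and at least 10 CPM in the higher group. ENSRNOG00000023342 stood at 123, 301 and 130 CPM in the MEC libraries and had no count in any of the 3 fibroblast libraries. All MEC libraries were far above all fibroblast libraries, and MEC replicate 2 was the highest. Against a floor of 3 counts over the fibroblast group as a whole, the level was at least 3839-fold higher in MECs (edgeR adjusted p = 0.00028). The exact two-sided 95% interval of the ratio of summed counts has a lower limit of 3122-fold, and both limits cover counting error only. The gene was at 158 to 268 CPM in MECs of the IF line, 173 to 216 in PS and 161 to 233 in IFPS. It had 1 count in total over the 9 fibroblast libraries of the lines. In wildtype adipocytes it ranged from 0.319 to 8.52 CPM, and in the 6 wildtype pads from 111 to 1060 CPM, so some whole pads were above the cultured MECs.

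ENSRNOG00000060831 was measured at 1501, 1962 and 1477 CPM in wildtype MECs and at 0, 0.189 and 0.360 CPM in wildtype fibroblasts. The fibroblast level rests on 12 counts in total. The log2 difference was 13.04 ± 0.443 (SE), with an edgeR adjusted p of 8.69e-06. MEC levels were 911 to 1010 CPM in IF, 1010 to 2800 in PS and 645 to 1320 in IFPS, while no fibroblast library of any line exceeded 1.15 CPM. The wildtype difference did not depart detectably from the mean of the lines (difference 0.89 ± 1.16 (SE), adjusted p = 0.781 by edgeR). Wildtype pads ran from 17.4 to 1240 CPM, all below the lowest wildtype MEC library.

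ENSRNOG00000014603 was measured at 208, 114 and 144 CPM in wildtype fibroblasts and at 0.458, 0.524 and 0.402 CPM in wildtype MECs, a log2 difference of -8.38 ± 0.325 (SE) with an edgeR adjusted p of 9.78e-06. All fibroblast libraries were above all MEC libraries, and the MEC level rests on 43 counts in total. The lines gave -8.01 (IF), -7.61 (PS) and -7.88 (IFPS). Wildtype adipocytes held 60.4 to 84.3 CPM of this gene and wildtype pads 37.0 to 109 CPM, levels that overlap with those of line fibroblasts.

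ENSRNOG00000057811 was called higher in wildtype fibroblasts, but the size of the difference rested mainly on 1 library. Its levels were 157, 0.566 and 3.37 CPM in fibroblasts and 0.0981, 0.0328 and 0 CPM in MECs. The log2 difference was -10.14 ± 2.86 (SE), with an edgeR adjusted p of 0.019. It did not pass the test against a 2-fold change (adjusted p = 0.0569). Without fibroblast replicate 1 the difference was -5.38 and the gene was still called (edgeR adjusted p = 0.00713). The call was lost when any 1 of the MEC replicates was left out (adjusted p from 0.06 to 0.0624). With the replicate block the difference was -10.09 ± 0.478 (SE), with an edgeR adjusted p of 3.84e-05. In all 3 lines the direction was the opposite. It was called in IF and IFPS (log2 difference 7.49 in IF and 8.26 in IFPS, edgeR adjusted p = 0.0186 and 0.0036): 1.76 to 173 CPM in IF MECs against 0.174 to 0.584 CPM in IF fibroblasts, and 14.9 to 315 CPM in IFPS MECs against 0.189 to 0.525 CPM in IFPS fibroblasts. In PS, where the gene did not pass the filter on low counts, MECs held 0.0925 to 32.3 CPM and fibroblasts 0 to 0.0352 CPM. In the fit of 24 libraries the wildtype difference departed from that of IF (-17.65, adjusted p = 0.0348) and PS (-19.47, adjusted p = 0.0188), while the departure from IFPS (-18.39) missed the threshold (adjusted p = 0.0636, all by edgeR). Wildtype pads covered 0 to 286 CPM.

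**Figure D3:**
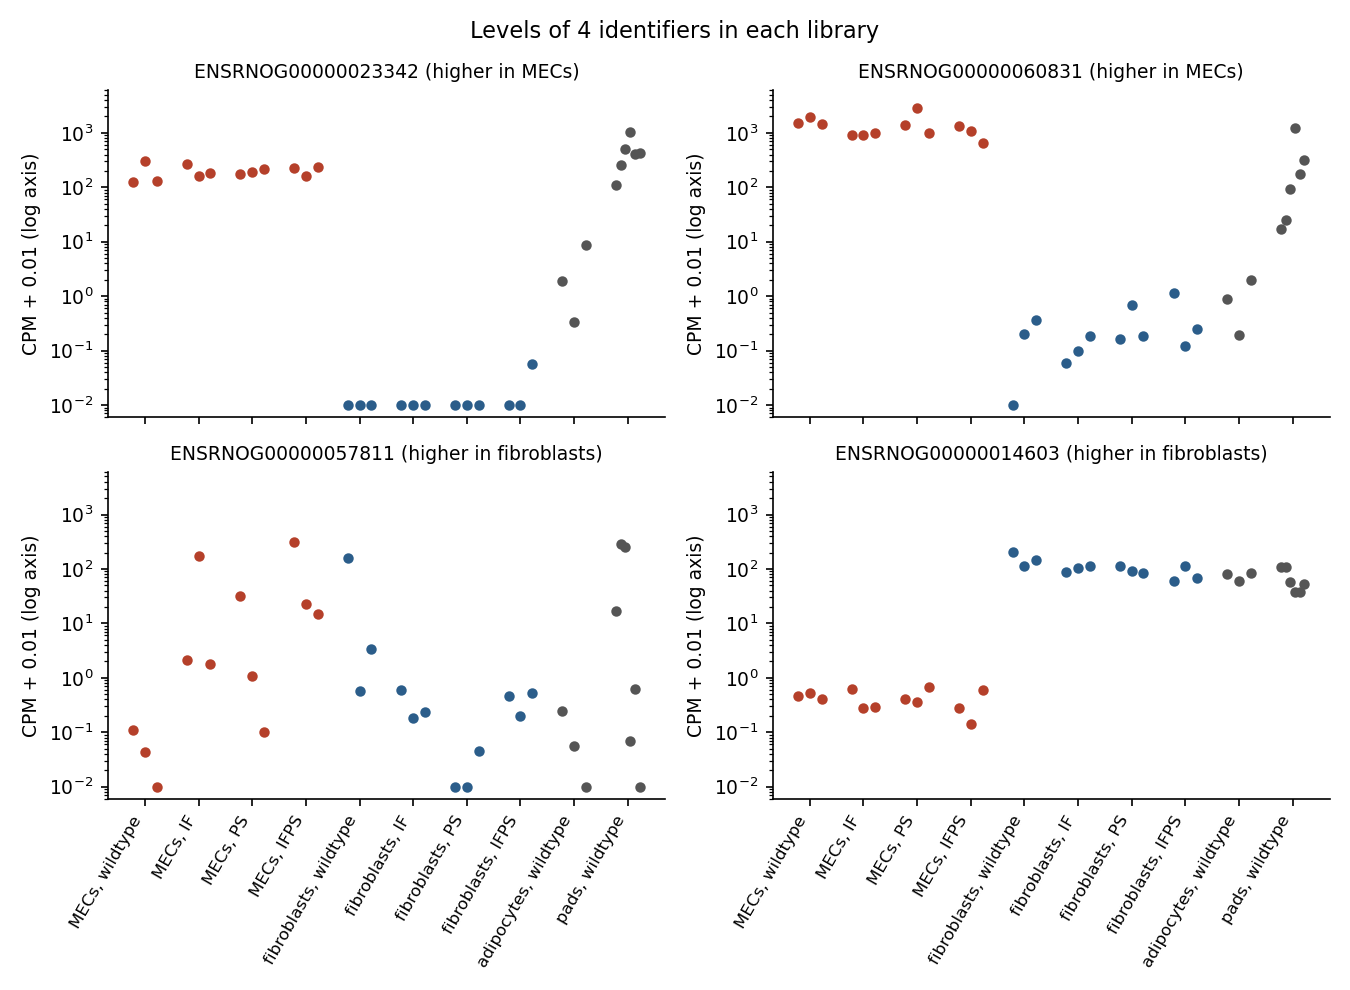
Level of each of the 4 identifiers in every MEC and fibroblast library and in wildtype adipocytes and whole pads, as CPM + 0.01 on a log axis; each point is 1 library. The MEC and fibroblast points of the other 3 identifiers lie apart in wildtype and in all 3 lines, whereas ENSRNOG00000057811 scatters within groups and changes direction between wildtype and the lines.

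The wildtype difference was then measured in the libraries of the mutated lines, which share no library with it. By edgeR at an adjusted p under 0.05, the IF line had 9739 called genes of 14290 (68.2%), PS had 10833 of 14572 (74.3%) and IFPS had 9034 of 14210 (63.6%). Of the wildtype MEC-higher genes tested in a line, those called higher in MECs again were 1541 of 1552 for IF, 1542 of 1563 for PS and 1536 of 1556 for IFPS. Over all tested genes, 34.4%, 38% and 31.9% were called in that direction. Of the fibroblast-higher genes, those called higher in fibroblasts again were 922 of 938 for IF, 917 of 938 for PS and 911 of 929 for IFPS, against 33.8%, 36.4% and 31.7% of all tested genes. Against a 2-fold change, 1447 MEC-higher genes passed in IF, 1418 in PS and 1360 in IFPS, where 13.8%, 15% and 11.6% of all tested genes passed in that direction. For fibroblast-higher genes the counts were 837, 850 and 751, against 8.91%, 10.4% and 6.74% of all tested genes. Calls in the opposite direction numbered 0, 1 and 0 for the MEC-higher class and 4, 6 and 3 for the fibroblast-higher class, in the order IF, PS, IFPS. Across genes, which are not independent replicates, the log2 differences in wildtype and in a line correlated with Pearson's r of 0.956 (IF), 0.943 (PS) and 0.950 (IFPS).

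The excess of large differences toward MECs was also present in each line. At 16-fold or more, IF had 670 genes higher in MECs and 208 higher in fibroblasts, PS had 734 and 230, and IFPS had 504 and 130. The share of genes at 5 CPM or more in fibroblasts that were below 1 CPM in MECs was 0.498% (IF), 0.517% (PS) and 0.289% (IFPS), against 2.31%, 2.29% and 1.53% in the other direction. The median log2 difference of the wildtype MEC-higher class was 3.49 (IF), 3.58 (PS) and 2.97 (IFPS), and that of the fibroblast-higher class was -2.29, -2.32 and -1.99. Of the 3771 genes with a wildtype difference bounded within 1.41-fold, 0, 2 and 0 were called over 2-fold in IF, PS and IFPS.

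**Figure D4:**
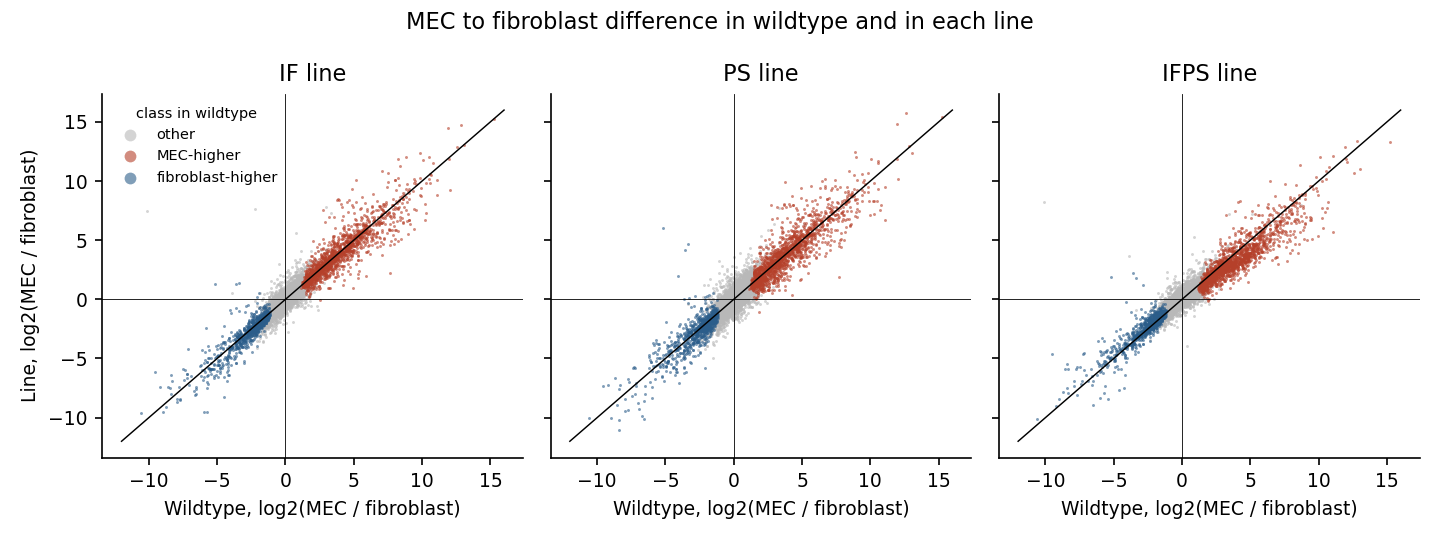
Log2 difference between MECs and fibroblasts for each gene in wildtype (x axis) and in the IF, PS and IFPS lines (y axis), colored by the wildtype class, with the diagonal marking equal differences. The points follow the diagonal (Pearson's r from 0.943 to 0.956 across genes), and the IFPS points of the MEC-higher class lie lower, with a median of 2.97 against 3.49 in IF and 3.58 in PS.

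In IFPS, the class shares of fibroblast libraries departed from the wildtype ranges, whereas those of MEC libraries overlapped with wildtype for both classes. MEC-higher genes held 1.11 to 1.43% of counts in IFPS fibroblasts against 0.952 to 1.03% in wildtype, and fibroblast-higher genes held 22 to 23.1% against 23.6 to 25.5%. Neither pair of ranges overlapped, with an exact permutation p of 0.1 (two-sided, the smallest possible) and 0.4 after Benjamini-Hochberg adjustment over 12 such comparisons. This was not particular to IFPS. The fibroblast-higher share of IF MECs (6.34 to 6.63%) also lay outside the wildtype MEC range (6.66 to 7.56%), with the same permutation p-values. In 2 of the 3 IFPS fibroblast libraries MEC-higher genes stood at a median of 16.2 and 16.8% of the mean IFPS MEC level. In the other it was 11.3%, close to the wildtype range of 10.1 to 11.2%, which was taken against wildtype MECs. Fibroblast-higher genes stood at a median of 25.9, 27.6 and 29.3% of the mean IFPS fibroblast level in the 3 IFPS MEC libraries. All were above the wildtype range of 24 to 25.4%, taken against wildtype fibroblasts, a difference that was not tested. Each of these percentages is a ratio within a line, so it can move with the level in either cell type. The classes were chosen on the wildtype libraries, and that choice favors a wider difference in wildtype. The comparisons with wildtype in this paragraph therefore cannot separate a change in a line from the choice of genes.

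The difference itself was compared between wildtype and the lines in a fit of all 24 libraries. Of 15224 genes, 258 (1.69%) had a wildtype difference that departed from the mean of the 3 lines at an adjusted p under 0.05 by edgeR. It was shifted toward MECs in wildtype for 81 of them and toward fibroblasts for 177. The sign was opposite in wildtype and the lines for 89, while the wildtype difference was the larger for 57 and the smaller for 112. The MEC-higher class held 17 of these genes (1.07% of 1585) and the fibroblast-higher class 23 (2.42% of 950), against 1.69% of all genes tested. The count depends on single wildtype libraries: it was 88 without MEC replicate 1, 156 without MEC replicate 3, 158 without fibroblast replicate 1 and 166 without fibroblast replicate 3. Taken line by line, comparisons that share the wildtype libraries, 220 genes (1.45%) departed from IF, 1705 (11.2%) from PS and 36 (0.236%) from IFPS. At an unadjusted p under 0.05 by edgeR the numbers were 2300, 4057 and 2736. The order of IF and IFPS thus depended on the threshold, and the counts do not rank the lines by closeness to wildtype.

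The shares of the classes were also read in adipocytes, pads and tumors, as a description of libraries that played no part in choosing them. In wildtype adipocytes MEC-higher genes held 5.80 to 6.86% of counts and fibroblast-higher genes 10.3 to 11.4%. In the 6 wildtype pads the MEC-higher share was 5.92 to 7.64%, with a median of 6.59%, and the fibroblast-higher share 9.42 to 14.2%, with a median of 11.8%. By share of counts, adipocytes thus lay between the cultured types for both classes. By genes at 1 CPM or more in every library they were nearer to fibroblasts for the MEC-higher class. These made up 44.7% of the class in wildtype adipocytes, 38.2% in fibroblasts and 86.5% in MECs. For the fibroblast-higher class the values were 75.4%, 93.3% and 69.1%. For the 33 MEC-restricted genes adipocytes and pads lay further apart. Of these, 0 of 33 reached 5 CPM in every wildtype adipocyte library and 14 of 33 did so in every wildtype pad. Summed, they came to 12.7 to 61.3 CPM in adipocytes, 2040 to 8840 CPM in pads and 920 to 1560 CPM in cultured MECs. In fibroblast libraries of the lines, 22 of the 33 stayed at 3 counts or fewer in every library in IF and in PS and 14 in IFPS, and 31 to 32 reached 5 CPM in every MEC library of a line.

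In all tumors of the IF and PS lines the MEC-higher share was above that of every wildtype MEC library. The lowest PS tumor (10.03%) was only just above the highest wildtype MEC library (9.988%). A larger share of counts did not mean more genes detected. MEC-higher genes at 1 CPM or more in every library made up 68.7% in IF tumors and 69.4% in PS tumors. In wildtype MECs they made up 86.5%, over fewer libraries. MEC-higher genes held 11.5 to 16.1% of counts in IF tumors (n = 5) and 10 to 13.3% in PS tumors (n = 9), while fibroblast-higher genes held 3.85 to 6.76% and 3.78 to 5.22%. The fibroblast-higher share of 1 IF tumor (6.76%) was within the wildtype MEC range of 6.66 to 7.56%, and some MEC libraries of the lines reached MEC-higher shares (up to 10.7%) above the lowest PS tumor. IFPS tumors (n = 9) were spread more widely, from 2.64 to 11.7% for MEC-higher genes and from 3.68 to 11.7% for fibroblast-higher genes.

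**Figure D5:**
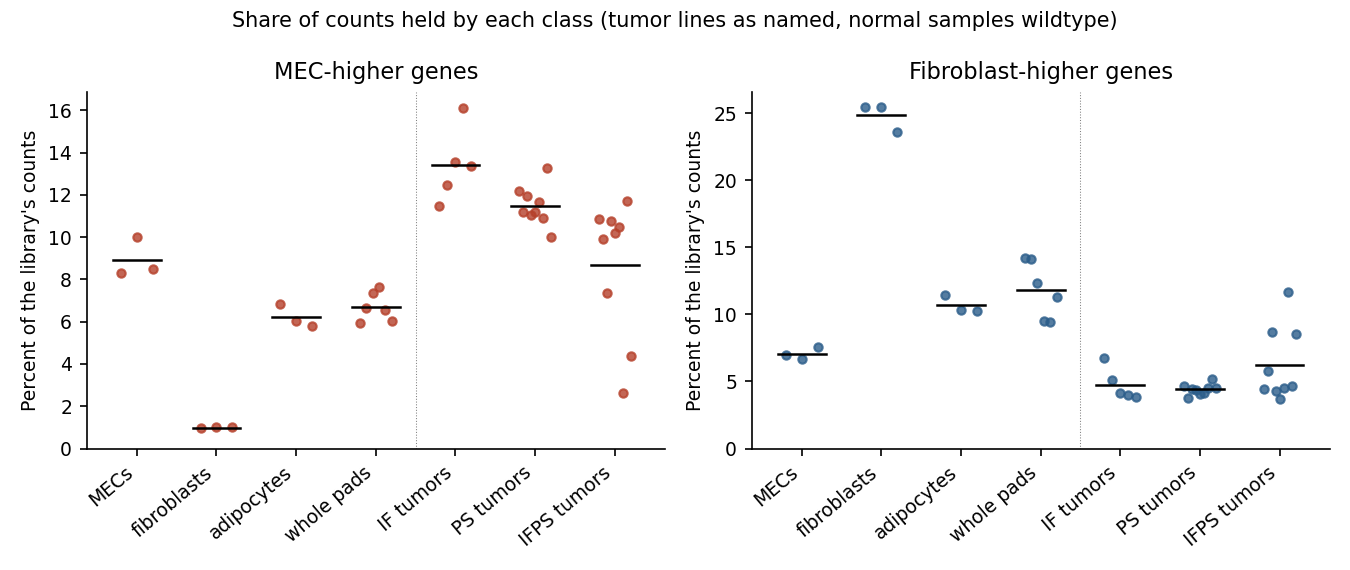
Percent of each library's counts held by MEC-higher (left) and fibroblast-higher (right) genes in wildtype cultured cells, adipocytes and whole pads and in tumors of the 3 lines; points are libraries and bars are group means. Wildtype adipocytes and pads lie between the cultured types in both panels, and IF and PS tumors lie above the wildtype MEC libraries for MEC-higher genes.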

How the data were processed

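Per the labels' protocols, poly(A) libraries of cultured MECs and fibroblasts were read from both ends with 50 bp reads. The authors deposited raw counts, whole numbers of reads per Ensembl rat gene identifier in 80 columns, and these counts were used as deposited. The submitters' processing notes name Trim Galore, STAR 2.5.2b and Rnor_6.0. The counting tool, its strand setting and the annotation release are not given in the sources used here, so overlapping, antisense and near-identical genes are uncertain.

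Libraries were grouped by title, tissue and genotype labels. Counts were filtered with filterByExpr, scaled by TMM and tested with edgeR 4.0.16 in R 4.3.3 (glmQLFTest, and glmTreat against a 2-fold change) over the 6 wildtype libraries, over each line, and over 24 libraries for differences between wildtype and lines. Printed CPM use TMM factors over all 80 libraries, and shares are percent of raw counts. Alternatives were DESeq2 1.42.0, RLE size factors, library totals alone, no filter, the 24-library fit, a replicate block, thinning and leaving out libraries. On simulated counts the edgeR test recovered 67% of 2-fold and 88.9% of 4-fold changes in the wildtype comparison over 14076 genes, with 3.13% of calls false. There glmTreat recovered 65.7% of 4-fold changes, and 16% of DESeq2 calls were false. The simulation changed few genes and kept the rest equal in both cell types, whereas 59.7% of genes were called in the data. Its rates therefore may not carry over. Title numbers recur in both cell types. Deviations of same-numbered MEC and fibroblast libraries correlated at 0.247, 0.321 and 0.37 in wildtype and at 0.164 to 0.369 in the lines over 9496 genes. Differently numbered libraries correlated at -0.211 to -0.0241 in wildtype and at -0.331 to 0.125 in the lines. The numbers were therefore taken to pair the libraries in the replicate block. The main fits were unpaired, and their p-values do not use this pairing.

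The comparison, the gene classes and the lists were chosen with earlier results of these data known. Individual genes were named by the largest absolute log2 difference among called genes with no overlap and at least 10 CPM in the higher group. The rule also asked for a symbol, and without symbols it was applied without that condition and limited to 2 identifiers per direction. The 31 gene lists (572 genes), the marker check and promoter sequences, which need symbols, were not analysed here.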

Additional observations from a re-analysis of the deposited data

Results flagged for a closer look

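The 4 identifiers and the shares of both gene classes were searched for a single library far from the others in 6 groups of pads or tumors, 36 tests in all. In 8 of the tests, spread over 5 of the groups, such a library was found. The nominal rate of the test, about 1 in 20, assumes independent values with a normal spread. CPM were not log-transformed here and the tests shared libraries, so the number found does not measure an excess over chance. All 8 were of identifiers. Groups of 3, which include all cultured cells, were not tested. ENSRNOG00000023342 reached 13300 CPM in 1 IF tumor (the others 3540 to 4990) and 2280 CPM in 1 PS pad (475 to 1150). ENSRNOG00000060831 reached 2960 CPM in the same PS pad (24.5 to 367) and 1240 CPM in 1 wildtype pad (17.4 to 313). ENSRNOG00000057811 reached 2.65 CPM in 1 IFPS tumor (0 to 0.421), 23.7 CPM in 1 PS pad (0 to 1.51) and 9.32 CPM in 1 IFPS pad (0 to 0.118). ENSRNOG00000014603 reached 111 CPM in 1 IFPS pad (28.4 to 45.6).

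The difference between MECs and fibroblasts departed in wildtype from the mean of the 3 lines for 258 genes in the test of that difference by edgeR. ENSRNOG00000057811 was among them, at -18.51 ± 3.73 on the log2 scale (SE, adjusted p = 0.0146).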

How the results depend on the processing

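The wildtype count of 8501 genes and the over-2-fold count of 2535 stayed within 1.5 times under all 13 alternatives, and between 78.2 and 99.5% of the called genes were called in the same direction. Leaving out each library gave 7349 to 8367 and 2324 to 2633 genes. In the lines this gave 8847 to 9583 genes in IF, 10255 to 10546 in PS and 8085 to 8815 in IFPS. Thinning all libraries to the smallest total, an alternative chosen after seeing the data, gave 8345 and 2482. The number of genes whose difference departed from the lines moved by over 1.5 times: 258 in edgeR, 161 with no filter on low counts, 502 with DESeq2, and 88 to 261 without single wildtype libraries. The cause was not tested. With the replicate block the counts were 8581 and 2661 in wildtype, 236 for the departure from the lines, and 9862, 11101 and 8861 in IF, PS and IFPS, and no call of a named identifier changed. DESeq2 gave ENSRNOG00000057811 no adjusted p. MEC-restricted genes numbered 179 at 1 CPM, 19 at 10 CPM, 5 with no count in fibroblasts and 112 with up to 10 counts, against 24, 0, 0 and 2 fibroblast-restricted genes, limits added after seeing the data. With classes set by the adjusted p alone, the shares in wildtype pads were 24 and 43.6%, since those classes hold more genes. Depth limits genes with few counts: the median standard error of the log2 difference was 0.304 in the least abundant set of genes and 0.0875 in the most abundant.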

Other observations

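The adipocyte libraries of the IF line held the 33 MEC-restricted genes at summed levels of 119 to 2350 CPM, against 12.7 to 61.3 CPM in wildtype, 9.74 to 23.9 CPM in PS and 13.2 to 17.4 CPM in IFPS adipocytes. In IF adipocytes 6 of the 33 genes reached 5 CPM in every library, and none did so in adipocytes of the other lines or of wildtype. ENSRNOG00000023342 ranged from 9.40 to 281 CPM in IF adipocytes and ENSRNOG00000060831 from 1.83 to 113 CPM. The share of counts in the whole MEC-higher class showed no such gap, with 6.63 to 6.80% in IF adipocytes and 5.80 to 6.86% in wildtype adipocytes.

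ENSRNOG00000057811 split the wildtype pads by title number. The 3 pads numbered 1 to 3 held 0.0593, 0.621 and 0 CPM, and the 3 pads numbered 13 to 15 held 17.2, 286 and 251 CPM. ENSRNOG00000060831 ran the other way, with 1236, 177 and 313 CPM in the first set and 17.4, 24.6 and 93.8 CPM in the second.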
